A study of Mus musculus with 2 samples.

Results

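Genes of the phagocyte NADPH oxidase and antioxidant genes were followed in myeloid cells from colonic polyps of WT and *Clec7a*-/- mice. The genes form a named set that follows no measured threshold, and they were chosen with earlier results of these data known. They are 4 oxidase genes, *Cybb*, *Cyba*, *Ncf1* and *Ncf4*, and 5 antioxidant genes, *Sod2*, *Txnrd1*, *Gclm*, *Prdx1* and *Cat*. All 9 were found among the 32285 genes listed for each library. The mice were C57BL6/J, 26 weeks old by the labels, and polyps had been induced in all of them with azoxymethane (AOM), a carcinogen, followed by drinking water with 1% dextran sodium sulfate (DSS) in 3 cycles. Cells were taken 16 weeks after AOM. CD11b+ and CD11c+ cells were sorted from the polyps, which gave 1 library from a pool of 5 WT mice and 1 from a pool of 4 *Clec7a*-/- mice, labelled KO. *Clec7a* encodes Dectin-1, a receptor for β-glucans on myeloid cells, and its own level was not analysed here. With 1 library per genotype there was no replicate, so no test was run. Each interval given is an exact 95% interval for counting error only, and does not cover variation from mouse to mouse or from one preparation to the next.

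The phagocyte oxidase moves electrons from NADPH to oxygen and so makes superoxide. Its membrane part, cytochrome b558, is made of the products of *Cybb* (gp91phox) and *Cyba* (p22phox), and is switched on by the cytosolic subunits that include the products of *Ncf1* (p47phox) and *Ncf4* (p40phox), together with a Rac GTPase. Superoxide is turned into hydrogen peroxide by dismutases such as the mitochondrial *Sod2*, and the peroxide is removed by catalase (*Cat*) and by peroxiredoxins such as *Prdx1*. Thioredoxin reductase (*Txnrd1*) keeps thioredoxin reduced for the peroxiredoxins, and *Gclm* encodes the modifier subunit of the enzyme that starts glutathione synthesis. Many of the antioxidant genes are known targets of the transcription factor NRF2, which binds the antioxidant response element.

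The SeekOne MM kit, which the protocol names although the sample description names another maker's platform, captures cells in microwells and counts transcript 3′ ends by unique molecular identifiers (UMIs). A filter of 200 to 4000 genes per cell and no more than 5% of UMIs from mitochondrial genes left 2696 WT cells with a median of 3412.5 UMIs and 1999 *Clec7a*-/- cells with a median of 2671 UMIs. The 2 libraries shared 17 cell barcodes, 6 of them among the cells kept. The 15 clusters drawn without the 9 genes were named from marker genes. Neutrophil-like clusters held 678 WT and 402 *Clec7a*-/- cells, led by *Ngp*, *Retnlg* and *Lcn2* or by *Csf3r*. Monocyte-like clusters held 665 and 470 cells, led by *Ly6c2* and *Chil3* (cluster 0) or by *Ccl24* and *Mmp19* (cluster 3). Of the 14 monocyte markers, 11 were raised in cluster 0 but only 4 in cluster 3, so its name is less certain. Cluster 3 gave 264 of the WT and 202 of the *Clec7a*-/- cells of the class. Macrophage-like clusters held 535 and 300 cells, led by *Mrc1* and *Mmp13* or by *Igf1* and *Cx3cr1*. Dendritic-cell-like (DC-like) clusters held 363 and 567 cells, led by *Fscn1*, *Zbtb46* or *Xcr1*. T-cell-like cells, 66 and 121, were kept as a comparison for genes of phagocytes. The neutrophil-like class was mostly cluster 1 in the WT library, with 493 of its cells, and mostly the shallow cluster 2 in the *Clec7a*-/- library, with 317 of its cells. No class was given to cluster 5, in which 11 of the 16 neutrophil markers and 7 of the 14 monocyte markers were raised. The small cluster 12, of 13 WT and 19 *Clec7a*-/- cells, also had no class. Levels are UMIs of a gene per 1000000 UMIs of the same cells (CPM). CPM is not divided by gene length, since a 3′ end is counted once per transcript whatever its length.

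On GRCm38, in the annotation of GENCODE M21, *Cybb* (ENSMUSG00000015340) lies on the minus strand of chromosome X from 9435252 to 9487771, *Cyba* (ENSMUSG00000006519) on the minus strand of chromosome 8 from 122424776 to 122432930, *Ncf1* (ENSMUSG00000015950) on the minus strand of chromosome 5 from 134220053 to 134229625 and *Ncf4* (ENSMUSG00000071715) on the plus strand of chromosome 15 from 78244801 to 78262580. *Sod2* (ENSMUSG00000006818) lies on the plus strand of chromosome 17 from 13006846 to 13040063, *Txnrd1* (ENSMUSG00000020250) on the plus strand of chromosome 10 from 82833951 to 82897712, *Gclm* (ENSMUSG00000028124) on the plus strand of chromosome 3 from 122245557 to 122270732, *Prdx1* (ENSMUSG00000028691) on the plus strand of chromosome 4 from 116685544 to 116700822 and *Cat* (ENSMUSG00000027187) on the minus strand of chromosome 2 from 103453849 to 103485160. *Txnrd1* and *Gclm* each overlap 1 other gene on the same strand, *Eid3* and the pseudogene *Gm6061*, and a split of reads between them cannot be told apart from these counts.

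The subunits of the oxidase were not found at their highest levels in the same cells. *Cybb*, the catalytic subunit, was highest in macrophage-like cells, with monocyte-like cells next, in both libraries. In macrophage-like cells it reached 715 (690.0 to 741) CPM for WT and 740.4 (703 to 779) CPM for *Clec7a*-/- mice. Monocyte-like cells held 425 (399 to 452) and 589.5 (551 to 630.0) CPM. In neutrophil-like cells the level was only 88.4 and 46.2 CPM, from 155 and 22 UMIs, and in DC-like cells 44.2 (35.1 to 54.8) and 52.3 (44.2 to 61.4) CPM. Macrophage-like cells thus held 16.2 times the level of DC-like cells in the WT library. In the *Clec7a*-/- library the intervals of the lowest classes, DC-like and neutrophil-like, overlapped. T-cell-like cells held 0 *Cybb* UMIs in the WT library, which allows a level of up to 17.2 CPM, and 2 in the *Clec7a*-/- library.

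Among DC-like cells, *Cybb* separated the clusters. Over both libraries it was 157 CPM in cluster 8, led by *Zbtb46* and *Ccl17*, 23.7 CPM in cluster 7, led by *Fscn1* and *Il12b*, and 7.12 CPM in cluster 9, led by *Xcr1* and *Clec9a*. Cluster 9 was also led by *Itgae*, which encodes CD103. Monocyte markers summed to 2180 CPM in the WT and 1991 CPM in the *Clec7a*-/- cells of cluster 8. They summed to 428 and 586 CPM in cluster 7 and to 443 and 455 CPM in cluster 9. Their part in the *Cybb* level of cluster 8 was not tested. The share of cells with a *Cybb* UMI, with each cell thinned to 1000 UMIs so that depth is equal, also put macrophage-like and then monocyte-like cells first in both libraries. It was 43.5% (39.1 to 47.9) of 508 WT and 47.0% (41.0 to 53.0) of 281 *Clec7a*-/- macrophage-like cells, and 28.6% (25.1 to 32.4) of 625 and 36.0% (31.5 to 40.7) of 439 monocyte-like cells. It was 8.14% (6.08 to 10.6) and 5.09% (2.57 to 8.93) in neutrophil-like and 4.15% (2.29 to 6.87) and 4.68% (3.05 to 6.83) in DC-like cells. In T-cell-like cells, with median depths of 2284.5 and 1823 UMIs before thinning, it was 0 of 56 and 0 of 91 cells, which allows shares of up to 5.36% and 3.30%. The macrophage-like cells had medians of 8190.5 and 6608 UMIs before thinning. These limits rest on few T-cell-like cells. The share of WT DC-like cells lay under that of its library, while in CPM the WT DC-like cells, at 44.2 (35.1 to 54.8), lay above the T-cell-like limit of 17.2. Without thinning, 87.5% and 86.3% of macrophage-like cells held a *Cybb* UMI.

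*Ncf1*, the organizer subunit that brings the cytosolic complex to the membrane, had another pattern. Its level was 181 (162 to 202) CPM in WT neutrophil-like and 156 (138 to 175) CPM in WT DC-like cells, against 47.2 CPM in monocyte-like and 38.3 CPM in macrophage-like cells. In the *Clec7a*-/- library the same classes held 141 (109 to 179), 144 (131 to 159), 44.0 and 46.0 CPM. Neutrophil-like and DC-like cells did not differ beyond counting error in either library, nor did monocyte-like and macrophage-like cells. T-cell-like cells held 5 and 4 *Ncf1* UMIs. The cluster with the highest level was the *Fscn1* and *Il12b* cluster 7, at 197 CPM over both libraries, where *Cybb* was at 23.7 CPM.

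*Cyba*, the partner of *Cybb* in the membrane and also of other NADPH oxidases, differed little between classes. It ranged from 229 (214 to 243) CPM in macrophage-like to 124 (109 to 142) CPM in DC-like cells of the WT library and from 228 (208 to 250.2) to 129 (116 to 143) CPM in the *Clec7a*-/- library. Neutrophil-like cells, at 199.5 and 197 CPM, overlapped with both macrophage-like and monocyte-like cells in their intervals. T-cell-like cells held 97.4 (56.7 to 156) and 131 (88.8 to 185) CPM. *Ncf4*, a subunit that binds phosphatidylinositol 3-phosphate, was highest in neutrophil-like cells, at 162 (144 to 182) and 134 (104 to 172) CPM, followed by monocyte-like cells, at 120.1 (107 to 135) and 121 (104 to 140.3) CPM. Its levels in macrophage-like and DC-like cells, 84.5 and 84.0 CPM in the WT and 87.5 and 98.9 CPM in the *Clec7a*-/- library, did not differ beyond counting error. The order of the first classes was also within counting error in the *Clec7a*-/- library.

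**Figure D1:**
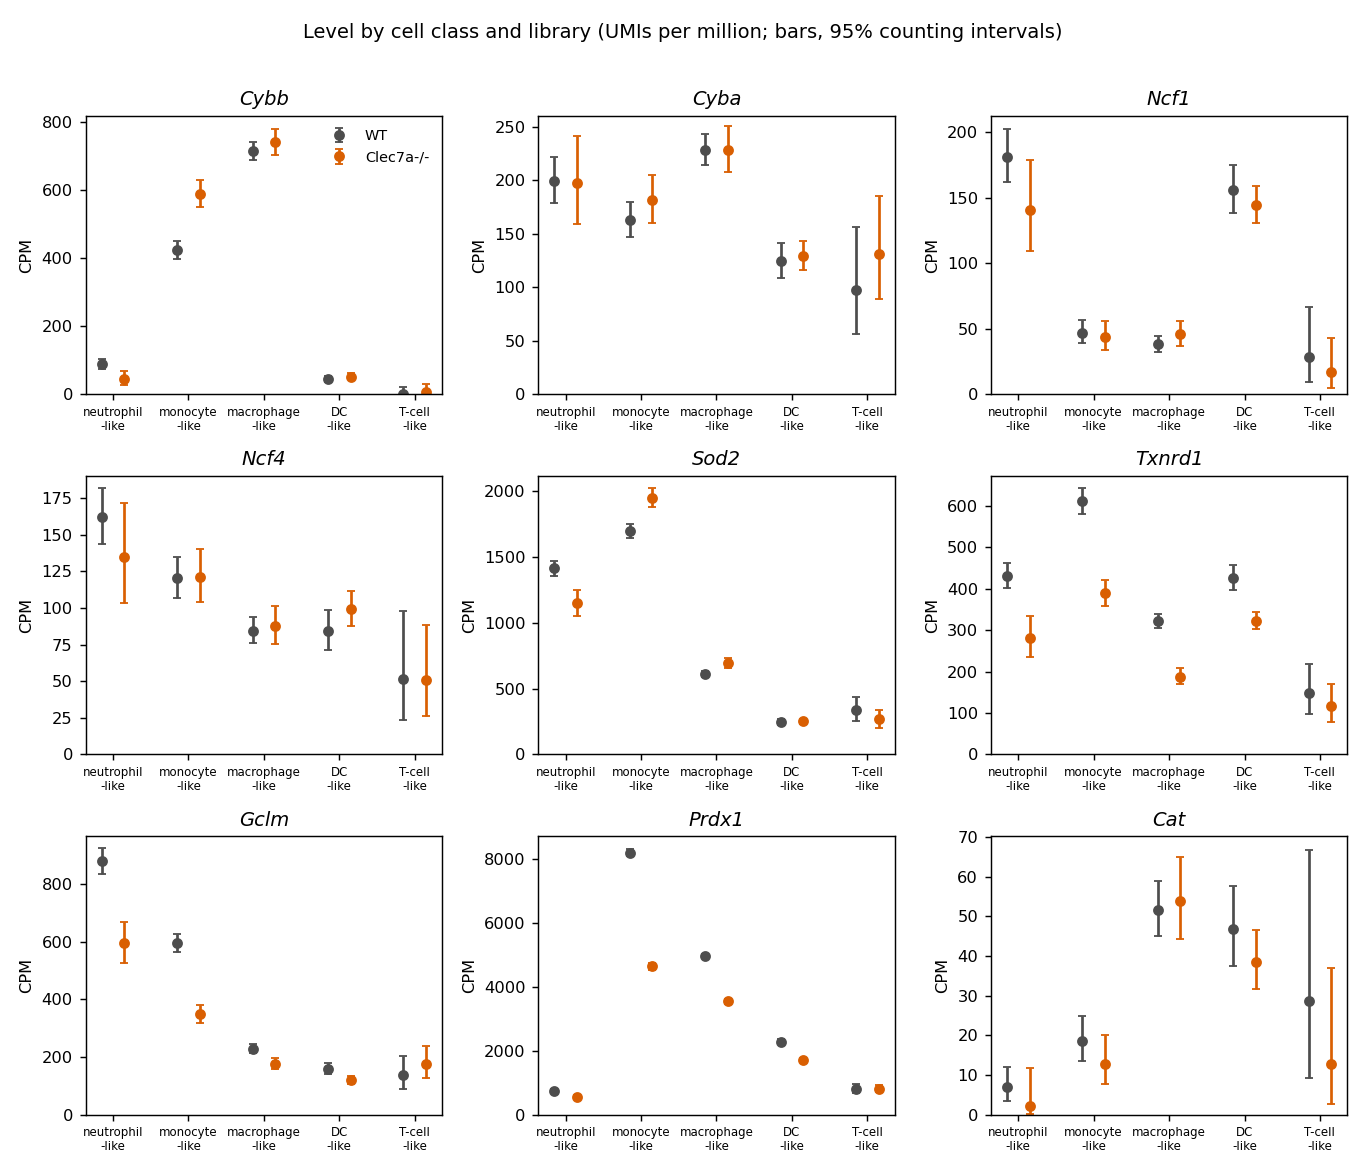
Level of the 9 genes in CPM (vertical axes, linear from 0) in 4 myeloid classes and in T-cell-like cells of the WT library (grey) and the *Clec7a*-/- library (orange), with bars for exact 95% Poisson intervals and 1 library per genotype. *Cybb* is highest in macrophage-like cells, at 715 and 740.4 CPM, and *Prdx1* in monocyte-like cells, at 8208 and 4641 CPM.

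The antioxidant genes were divided among the classes as well. *Sod2* was highest in monocyte-like cells, at 1692 (1640.2 to 1745) CPM in the WT and at 1945 (1875 to 2018) CPM in the *Clec7a*-/- library. It followed at 1409.7 (1355 to 1466) and 1145 (1051 to 1245) CPM in neutrophil-like, 611 (588 to 635) and 692 (656 to 729) CPM in macrophage-like and 246 (224 to 269.7) and 252 (234 to 271) CPM in DC-like cells. This order was the same in both libraries with no overlap of neighbouring intervals. Within the monocyte-like class, the *Ly6c2* and *Chil3* cluster 0 held 2375 CPM over both libraries and the *Ccl24* and *Mmp19* cluster 3 held 1246 CPM. T-cell-like cells held 338 (257 to 436) and 265 (204 to 339.6) CPM, in intervals that overlapped those of the DC-like cells.

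*Gclm* was at its highest in neutrophil-like cells in both libraries. It reached 878 (835 to 923) CPM there in the WT and 594 (527 to 668) CPM in the *Clec7a*-/- library. Monocyte-like cells held 595 (565 to 627) and 347 (318 to 379) CPM, macrophage-like cells 229 (215 to 244) and 176 (159 to 196) CPM, and DC-like cells 159 (142 to 179) and 119.7 (107 to 133) CPM. T-cell-like cells, at 138 (88.1 to 205) and 177 (128 to 239) CPM, overlapped with DC-like cells in both libraries. *Prdx1* had the same order as *Gclm* except for the neutrophil-like cells, which were last in place of first. It was 8208 (8094 to 8324) and 4641 (4532 to 4752) CPM in monocyte-like, 4969 (4902 to 5036) and 3553 (3471 to 3636) CPM in macrophage-like, 2284 (2216 to 2354) and 1718 (1669.7 to 1767) CPM in DC-like and 751 (711 to 792) and 557 (492 to 628) CPM in neutrophil-like cells. In the WT library the first of these was 10.9 times the last. T-cell-like cells held 814 and 813 CPM, above the neutrophil-like cells of the *Clec7a*-/- library.

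*Txnrd1* was more even, from 611 (579.9 to 643) CPM in WT monocyte-like to 322 (305 to 339) CPM in WT macrophage-like cells, with WT neutrophil-like and DC-like cells between them at 431 (401 to 463) and 427 (398 to 458) CPM, not different beyond counting error. *Cat* was scarce. Its 392 WT and 248 *Clec7a*-/- UMIs were found mostly in macrophage-like cells, at 51.6 (45.0 to 58.9) and 53.9 (44.2 to 65.0) CPM, and in DC-like cells, at 46.9 (37.5 to 57.8) and 38.5 (31.6 to 46.4) CPM. Neutrophil-like cells held 12 *Cat* UMIs in the WT and 1 in the *Clec7a*-/- library, and monocyte-like cells 44 and 19. These are too few to compare the libraries within those classes.

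Between the libraries, 3 of the 5 antioxidant genes and 0 of the 4 oxidase genes differed past the fold used here. Over all cells, *Gclm*, *Prdx1* and *Txnrd1* were lower in the *Clec7a*-/- library, and no oxidase gene differed by as much. The level of *Gclm* was 439 (428 to 451) CPM in the WT library against 218 (207 to 228) CPM, for a log2 ratio of −1.01 (−1.09 to −0.93). *Prdx1* stood at 4540.1 (4502 to 4578) CPM in the WT library against 2777 (2739.9 to 2815) CPM, and its log2 ratio was −0.71 (−0.73 to −0.69). For *Txnrd1* the levels were 427 (416 to 439) and 280.2 (268 to 292) CPM and the log2 ratio −0.61 (−0.68 to −0.54). These ratios divide *Clec7a*-/- by WT levels after adding 0.5 UMI to each, and a gene was called past the fold at a log2 ratio of at least 0.5 or at most −0.5, with at least 100 UMIs over both libraries. By this rule 3 of the 9 genes were lower and 0 were higher. Of all 8470 genes with as many UMIs, 7.31% were lower and 14.3% were higher past the same fold. Only 1.64% of all these genes had a lower ratio than *Gclm*, 3.94% a lower one than *Prdx1* and 5.34% a lower one than *Txnrd1*. Over all cells, a change in the mix of classes and a change of level per cell cannot be told apart.

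The other 6 genes were closer to even over all cells. For *Cybb*, 395 (384 to 406) CPM in WT cells stood against 359 (345 to 373) CPM, with a log2 ratio of −0.14 (−0.21 to −0.07). *Cyba*, *Ncf4*, *Ncf1* and *Cat* had log2 ratios of −0.07 (−0.17 to 0.03), −0.09 (−0.22 to 0.04), 0.09 (−0.06 to 0.23) and 0.04 (−0.20 to 0.27), within counting error of no difference. *Sod2*, at 994 (976 to 1012) and 803 (783 to 823) CPM, had a log2 ratio of −0.31 (−0.35 to −0.26). The median of all genes was 0.13 on this scale. With TMM scaling, which moves every ratio over all cells by −0.17, the median of all genes was −0.04 and 12.6% of all genes were lower and 7.66% higher past the fold. *Ncf1* and *Cat* were then below 0, and the same 3 of the 9 genes were past the fold.

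The ratios were also computed with the class mix held fixed. DC-like cells gave 15.1% of the UMIs of the WT library and 37.5% of those of the *Clec7a*-/- library, and neutrophil-like cells 14.3% and 6.30%. With each class given its share of UMIs in the WT library, the log2 ratio of *Gclm* was −0.70, that of *Prdx1* −0.60 and that of *Txnrd1* −0.72, all 3 past the fold. *Sod2*, which DC-like cells hold least of, was at −0.02, and *Cybb* at 0.17. The share of all cells with a *Gclm* UMI after thinning to 1000 UMIs was 32.0% (30.2 to 33.9) of 2510 WT cells and 16.7% (14.9 to 18.5) of 1692 *Clec7a*-/- cells. For *Txnrd1* it was 31.8% (29.9 to 33.6) and 23.8% (21.7 to 25.9), and for *Prdx1* 71.6% (69.8 to 73.4) and 67.8% (65.5 to 70.0). Thinning left out 186 WT and 307 *Clec7a*-/- cells with fewer UMIs, and without it the shares were 60.5% and 39.4% for *Gclm* and 66.9% and 48.5% for *Txnrd1*. Of the cells left out, 76 WT and 186 *Clec7a*-/- cells were neutrophil-like, so thinning also changed the class mix. Thinned to 2000 UMIs, which left out 500 WT and 757 *Clec7a*-/- cells, the order for *Prdx1* was reversed, at 81.9% and 88.8%.

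**Figure D2:**
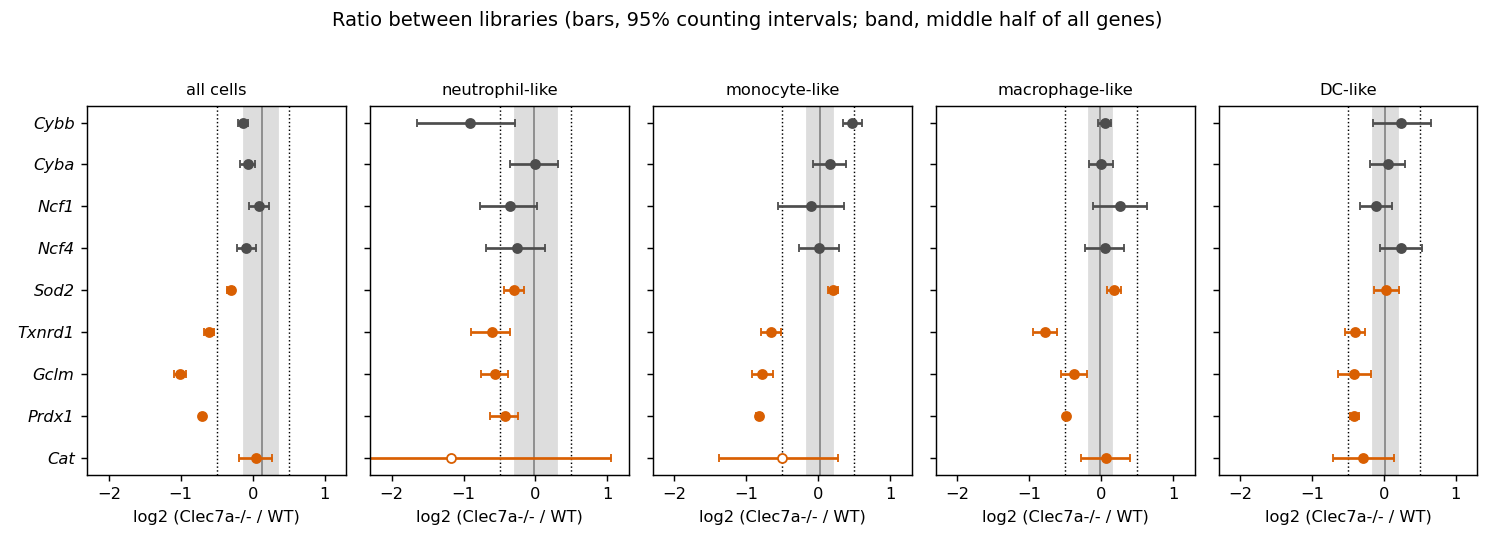
Log2 ratio of CPM, *Clec7a*-/- over WT library (horizontal axes), for the 4 oxidase genes (grey) and the 5 antioxidant genes (orange) over all cells and in 4 classes, with exact 95% counting intervals, dotted lines at −0.5 and 0.5, open points for genes with under 100 UMIs, and grey bands for the interquartile range and a grey line for the median of all genes with at least 100 UMIs. *Txnrd1*, *Gclm* and *Prdx1* lie left of the band in each panel.

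Within monocyte-like cells the same 3 genes were past the fold. *Prdx1* had a log2 ratio of −0.82 (−0.86 to −0.78), *Gclm* of −0.78 (−0.93 to −0.63) and *Txnrd1* of −0.65 (−0.80 to −0.51), so 3 of the 8 genes with at least 100 UMIs were lower past the fold and 0 higher. Of all 4397 genes tested in this class, 5.09% were lower and 4.55% higher, and with TMM scaling 69.1% in place of 52.8% of these calls were lower. *Cybb* was higher in the *Clec7a*-/- library, at 0.47 (0.34 to 0.60), and *Sod2* was at 0.20 (0.13 to 0.27), both beyond counting error and neither past the fold. *Cyba*, *Ncf1* and *Ncf4*, at 0.16, −0.10 and 0.01, were within counting error of no difference. Summed monocyte markers, all 14 of them detected, were 11349.6 and 10501 CPM in these cells, and the 16 neutrophil markers, 1 of them at 0 in the *Clec7a*-/- library, 3401 and 2804 CPM. Macrophage markers rose in the same cells, from 1888 CPM in the WT to 2311 CPM in the *Clec7a*-/- library. The part of these markers in the ratios was not tested.

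In macrophage-like cells only *Txnrd1* passed the fold, at −0.77 (−0.94 to −0.61), so 1 of 9 genes was lower and 0 higher. Of all 5805 genes tested, 4.62% were lower and 3.34% higher. *Prdx1*, at −0.48 (−0.52 to −0.45), lay just inside the limit, and *Gclm* was at −0.37 (−0.56 to −0.20). *Sod2* was at 0.18 (0.08 to 0.27), and *Cybb*, *Cyba*, *Ncf1*, *Ncf4* and *Cat* were within counting error of no difference. Summed macrophage markers were 16474 CPM in the WT and 22454 CPM in the *Clec7a*-/- cells, and the part of this shift in the ratios was not tested. The 2 clusters of the class differed. In cluster 4 the log2 ratios of *Txnrd1*, *Gclm* and *Prdx1* were −0.87 (−1.12 to −0.63), −0.65 (−0.97 to −0.34) and −0.88 (−0.95 to −0.82), all past the fold. In cluster 6 they were −0.71 (−0.95 to −0.49), −0.19 (−0.41 to 0.02) and −0.22 (−0.27 to −0.17).

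In DC-like cells 0 of the 9 genes were past the fold in either direction, while of all 4874 genes tested 4.51% were lower and 5.54% higher. With TMM scaling 55.6% in place of 44.9% of those calls were lower. The same 3 genes had nearly equal ratios there, −0.41 (−0.54 to −0.27) for *Txnrd1*, −0.41 (−0.64 to −0.18) for *Gclm* and −0.41 (−0.47 to −0.35) for *Prdx1*, all beyond counting error. The other 6 genes were within counting error of no difference. The share of DC-like cells with a *Gclm* UMI, 13.6% and 8.80%, lay at or below that of T-cell-like cells, 16.1% and 13.2%. Summed neutrophil markers were 2248 CPM in the WT and 1272 CPM in the *Clec7a*-/- DC-like cells. Their part in the ratios was not tested. Within the DC-like clusters the ratios of the same 3 genes were less equal. In clusters 7, 8 and 9 *Prdx1* was at −0.13 (−0.24 to −0.02), −0.61 (−0.71 to −0.52) and −0.21 (−0.32 to −0.10). *Txnrd1* was at −0.30 (−0.53 to −0.06), −0.18 (−0.42 to 0.05) and −0.62 (−0.89 to −0.35). *Gclm* was at −0.40 (−0.86 to 0.06), −0.11 (−0.45 to 0.24) and −0.56 (−0.99 to −0.12).

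Neutrophil-like cells gave ratios that rest on few *Clec7a*-/- UMIs. *Cybb* was at −0.91 (−1.65 to −0.29), from 155 WT and 22 *Clec7a*-/- UMIs, *Txnrd1* at −0.61 (−0.89 to −0.35) and *Gclm* at −0.56 (−0.75 to −0.38), so 3 of 8 genes were lower and 0 higher. The background was wider here, with 13.1% of all 2176 genes lower and 12.9% higher, and with TMM scaling 70.2% in place of 50.5% of those calls were lower. *Prdx1* was at −0.43 (−0.63 to −0.24) and *Sod2* at −0.30 (−0.44 to −0.17). Since the class was mostly cluster 1 in one library and cluster 2 in the other, the clusters were also compared one by one. In cluster 1 the log2 ratios of *Cybb*, *Txnrd1*, *Gclm* and *Prdx1* were −0.68 (−2.12 to 0.32), −0.77 (−1.31 to −0.31), −0.85 (−1.20 to −0.52) and −0.92 (−1.41 to −0.50). In cluster 2 they were −1.75 (−2.75 to −0.89), −0.89 (−1.28 to −0.50), −0.15 (−0.45 to 0.15) and −1.58 (−1.82 to −1.35). *Sod2* was not lower in both clusters, with −0.18 (−0.40 to 0.02) in cluster 1 and 0.34 (0.09 to 0.60) in cluster 2. The WT cells of cluster 2 held 19261 CPM of neutrophil markers and the *Clec7a*-/- cells 29089.6 CPM, and their part in these ratios was not tested.

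Cluster by cluster, *Txnrd1* was the most regular of the genes. It was lower in the *Clec7a*-/- library in 13 of the 13 clusters with at least 20 UMIs, beyond counting error in 9 of them and past the fold in 8. *Prdx1* was lower in 12 of 15 clusters, beyond counting error in 11. It was higher beyond counting error in 1, the proliferating cluster 12, where it was 3356 CPM in the WT and 4303 CPM in the *Clec7a*-/- library. That value rests on only 13 WT and 19 *Clec7a*-/- cells. *Gclm* was lower in 12 of 13 clusters, beyond counting error in 6. In cluster 5, outside the named classes, *Txnrd1* was at −1.06 (−1.48 to −0.69), *Gclm* at −1.28 (−1.66 to −0.94) and *Prdx1* at −0.77 (−0.87 to −0.66). Neutrophil markers summed to 21131 CPM in the 332 WT and 14448 CPM in the 82 *Clec7a*-/- cells of cluster 5. Their part in its ratios was not tested. *Sod2* was the opposite case, higher in 9 of 13 clusters and beyond counting error in 4, against 1 that was lower beyond counting error.

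The direction of *Cybb* differed between clusters. Of 10 clusters with at least 20 UMIs it was lower in 4 and higher in 6. In the *Ccl24* and *Mmp19* monocyte-like cluster 3 its level was 312 CPM in the WT library and 554 CPM in the other, a log2 ratio of 0.83 (0.63 to 1.03). It was 537 and 634 CPM in the *Ly6c2* cluster 0, a log2 ratio of 0.24 (0.06 to 0.42), and 113 and 194 CPM in the *Zbtb46* and *Ccl17* DC-like cluster 8, a log2 ratio of 0.78 (0.32 to 1.27). In the neutrophil-like cluster 2 it was 161 and 46.8 CPM. In the macrophage-like clusters 4 and 6, which hold most of the gene, it was within counting error of no difference, at 0.02 (−0.13 to 0.16) and 0.10 (−0.02 to 0.21). Macrophage markers summed to 2846 CPM in the WT and 3339 CPM in the *Clec7a*-/- cells of cluster 3. Their part in the *Cybb* ratio of cluster 3 was not tested.

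**Figure D3:**
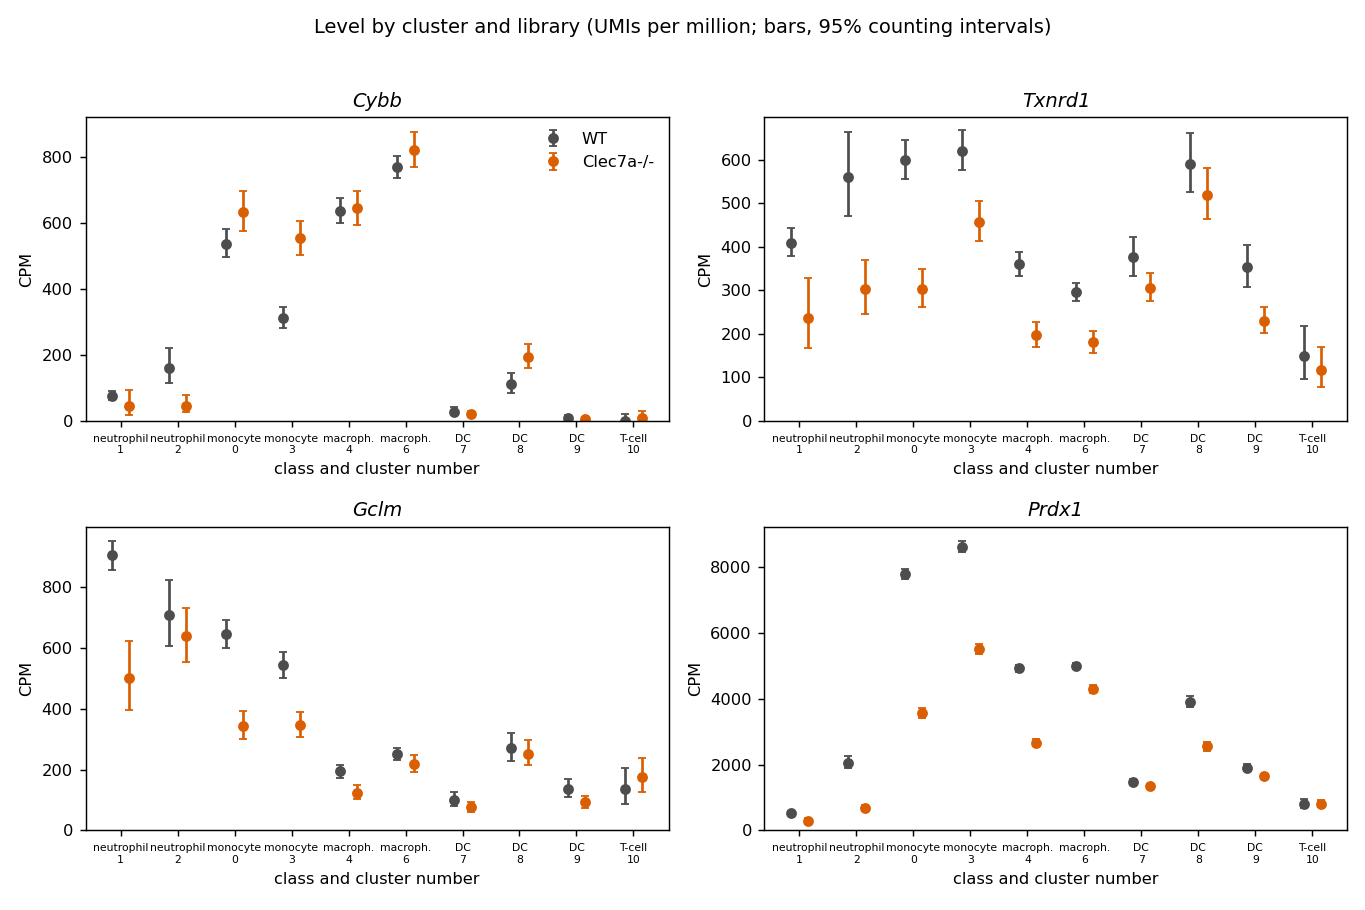
Level in CPM (vertical axes, linear from 0) of *Cybb*, *Txnrd1*, *Gclm* and *Prdx1* in each cluster of the 4 myeloid classes and in the T-cell-like cluster (horizontal axes), WT library in grey and *Clec7a*-/- library in orange, with exact 95% Poisson intervals. *Txnrd1* is lower in the *Clec7a*-/- library in every cluster drawn, while *Cybb* is lower in the neutrophil-like clusters 1 and 2 and higher in the monocyte-like clusters 0 and 3.

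The promoters of the genes were searched for the letters of an antioxidant response element core, TGACNNNGC or its reverse complement GCNNNGTCA, in the RefSeq promoter sequences of GRCm38.p6, each from 250 bases before to 50 bases after a start. Promoters of 8 of the 9 genes were found in that table. The letters were present in 3 of the 8 genes, *Txnrd1*, *Gclm* and *Prdx1*, which are also the 3 that were lower over all cells. Of all 27025 genes in the table, 14.0% held them in at least 1 promoter, and of all 32851 promoters, 12.4%. The upstream 250 bases of these 3 promoters, in the direction of transcription, are shown because they hold the letters that the 3 genes share, in capitals, read here on the other strand. They are chr10:82858956-82859205 (+), the second of 3 starts of *Txnrd1*, chr3:122245307-122245556 (+) of *Gclm* and chr4:116685349-116685598 (+) of *Prdx1*.
*Txnrd1*: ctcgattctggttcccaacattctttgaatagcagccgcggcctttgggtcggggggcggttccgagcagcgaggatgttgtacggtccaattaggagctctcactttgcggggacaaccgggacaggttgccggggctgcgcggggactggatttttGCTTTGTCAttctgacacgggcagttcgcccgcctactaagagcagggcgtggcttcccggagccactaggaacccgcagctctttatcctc
*Gclm*: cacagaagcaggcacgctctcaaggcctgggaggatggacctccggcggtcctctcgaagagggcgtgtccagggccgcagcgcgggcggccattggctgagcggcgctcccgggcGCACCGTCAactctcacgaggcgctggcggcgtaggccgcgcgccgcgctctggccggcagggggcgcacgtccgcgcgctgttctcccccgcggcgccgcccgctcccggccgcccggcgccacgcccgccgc
*Prdx1*: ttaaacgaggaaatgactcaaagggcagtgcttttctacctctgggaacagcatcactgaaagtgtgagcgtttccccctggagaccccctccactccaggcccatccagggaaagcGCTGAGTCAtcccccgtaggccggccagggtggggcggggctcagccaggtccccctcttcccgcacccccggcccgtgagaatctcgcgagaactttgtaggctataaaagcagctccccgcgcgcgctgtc
The last base of the match lay 84 bases before the start in *Txnrd1*, 126 in *Gclm* and 125 in *Prdx1*. The letters GAGGAA, the core bound by the myeloid factor PU.1, were in promoters of 5 of the 8 genes, *Cybb*, *Sod2*, *Txnrd1*, *Prdx1* and *Cat*, and in 31.3% of all genes, and the 2 motifs overlapped in none of the promoters found. Over all genes with at least 100 UMIs and a promoter in the table, those with the letters of the response element core were lower past the fold in 7.74% of 1188 cases and those without in 6.77% of 5627. Among other genes of the pathway, from the lists described next, 5 of 12 with the letters and 8 of 39 without were lower over all cells. Within classes the order of these shares was not constant, with 1 of 9 against 4 of 16 in neutrophil-like, 1 of 10 against 5 of 28 in monocyte-like, 1 of 11 against 0 of 34 in macrophage-like and 1 of 10 against 1 of 25 in DC-like cells. A match of letters is a description of the sequence and no sign of binding.

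The wider pathway was described from 7 lists of 98 genes, 9 of them the genes above. Of the 74 list genes with at least 100 UMIs over all cells, 22 were lower and 5 higher past the fold, and the median log2 ratio was −0.21. Without the 9 genes, 19 of 65 were lower and 5 higher. Among all genes 7.31% were lower and 14.3% higher. With TMM scaling 29 of the 74 were lower and 3 higher, against 12.6% and 7.66% of all genes. The lists were chosen with earlier results of these data known, so these counts are a description. In the oxidase list, the Rac GTPases *Rac1* and *Rac2* were at −0.09 (−0.14 to −0.04) and −0.10 (−0.17 to −0.03) over all cells.

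The list of NRF2 regulation and targets had 6 of 16 genes lower and 0 higher, with a median of −0.29. Heme oxygenase (*Hmox1*), which breaks down heme, was at 15609.8 CPM in WT cells and 7426 CPM in the others, with a log2 ratio of −1.07 (−1.09 to −1.06), and of −0.48 with the WT class mix. Its level was highest in neutrophil-like cells, at 33858 and 31333 CPM, where the ratio was −0.11 (−0.14 to −0.09). It was at −0.63 (−0.66 to −0.61) in monocyte-like, −0.65 (−0.68 to −0.62) in macrophage-like and −1.09 (−1.14 to −1.03) in DC-like cells, lower past the fold in 3 of the 4 classes. T-cell-like cells also held 3736 and 2634 CPM of *Hmox1*. The 16 neutrophil markers summed to 2412 and 1647 CPM in macrophage-like cells and to 2248 and 1272 CPM in DC-like cells. The part of neutrophil transcripts in these ratios was not tested. *Osgin1*, *Bach1*, which represses NRF2 targets, *Maff* and *Nqo1*, a quinone reductase, were at −1.07, −0.83, −0.61 and −0.58. The sixth was *Mafg*, named after its values were seen, at −0.56. With the WT class mix *Osgin1*, *Bach1*, *Maff* and *Mafg* were at −0.22, −0.49, −0.16 and −0.43, not past the fold, and *Nqo1* at −1.08. The transcript of NRF2 itself, *Nfe2l2*, was 653 and 567 CPM, a log2 ratio of −0.20 (−0.26 to −0.15), and that of its inhibitor *Keap1* was at 0.11 (−0.14 to 0.35), neither past the fold.

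In the thioredoxin and glutaredoxin list 4 of 10 genes were lower and 0 higher, with a median of −0.07. Sulfiredoxin (*Srxn1*), which restores overoxidized peroxiredoxins, was 460.0 and 248 CPM over all cells, a log2 ratio of −0.89 (−0.97 to −0.82). It was 648 and 280.2 CPM in monocyte-like, 351 and 180.4 CPM in macrophage-like and 490.1 and 284 CPM in DC-like cells, ratios of −1.21, −0.96 and −0.79, each past the fold. With the WT class mix it was at −0.93, the ratio that moved least among the lower list genes named here. *Glrx*, a glutaredoxin, was at −1.04 over all cells, −0.48 with the WT class mix and −0.26 with clusters weighted by the WT library. *Txnip*, which binds thioredoxin, was at −0.63, and at 0.23 with the WT class mix. In the glutathione list 4 of 12 genes were lower and 0 higher, with a median of −0.38. Besides *Gclm* these were *Gsr*, glutathione reductase, at −0.76 and −0.27 with the WT class mix, *Ggt5* at −0.66 and −0.35 with that mix, and *Slc7a11*, the cystine transporter, at −0.58, which was at 0.03 with the WT class mix. *Gclc*, the catalytic partner of *Gclm*, named after its values were seen, was not past the fold over all cells, at −0.40 (−0.48 to −0.33). In monocyte-like cells it was 742 and 412 CPM, a log2 ratio of −0.85 (−0.98 to −0.71).

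The list of dismutases and peroxide removal was mixed, with 3 of 12 genes lower and 3 higher and a median of 0.13. Lower beside *Prdx1* were *Prdx5* at −0.68 and *Prdx6* at −0.50, both peroxiredoxins. Higher were the cytosolic dismutase *Sod1* at 0.62, the extracellular dismutase *Sod3* at 1.85 (1.41 to 2.31), and the lipid peroxidase *Gpx4* at 0.55. *Prdx6* and *Gpx4* were named after their values were seen. With the WT class mix *Sod1* was at 0.10, *Sod3* at 0.60, *Gpx4* at 0.25, *Prdx5* at −0.36 and *Prdx6* at −0.28, so that only *Sod3* and *Prdx1* of these were past the fold. In the list of NADPH supply 2 of 9 genes were lower, *G6pdx* at −0.64 and *Pgd* at −0.63, both of the pentose phosphate pathway (−0.41 and −0.38 with the WT class mix), and 2 higher, *Pgls* at 0.75 and *Mthfd2* at 0.71. With the WT class mix *Pgls* was at 0.77 and *Mthfd2* at 0.02, and in monocyte-like cells *Mthfd2* was at −0.53. Among other oxidant enzymes and metallothioneins 2 of 5 were lower, *Alox5* at −1.24 and *Nos2* at −0.62 (−0.28 and −0.20 with the WT class mix), and 0 higher. Within classes the counts over all lists were 9 lower and 1 higher of 42 genes in neutrophil-like cells, where 13.1% of all genes were lower and 12.9% higher. They were 12 and 2 of 56 in monocyte-like cells, against 5.09% and 4.55% of all genes. In macrophage-like cells they were 5 and 2 of 65, against 4.62% and 3.34%, and in DC-like cells 4 and 3 of 55, against 4.51% and 5.54%. These last counts were within a few genes of the share of all genes.

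**Figure D4:**
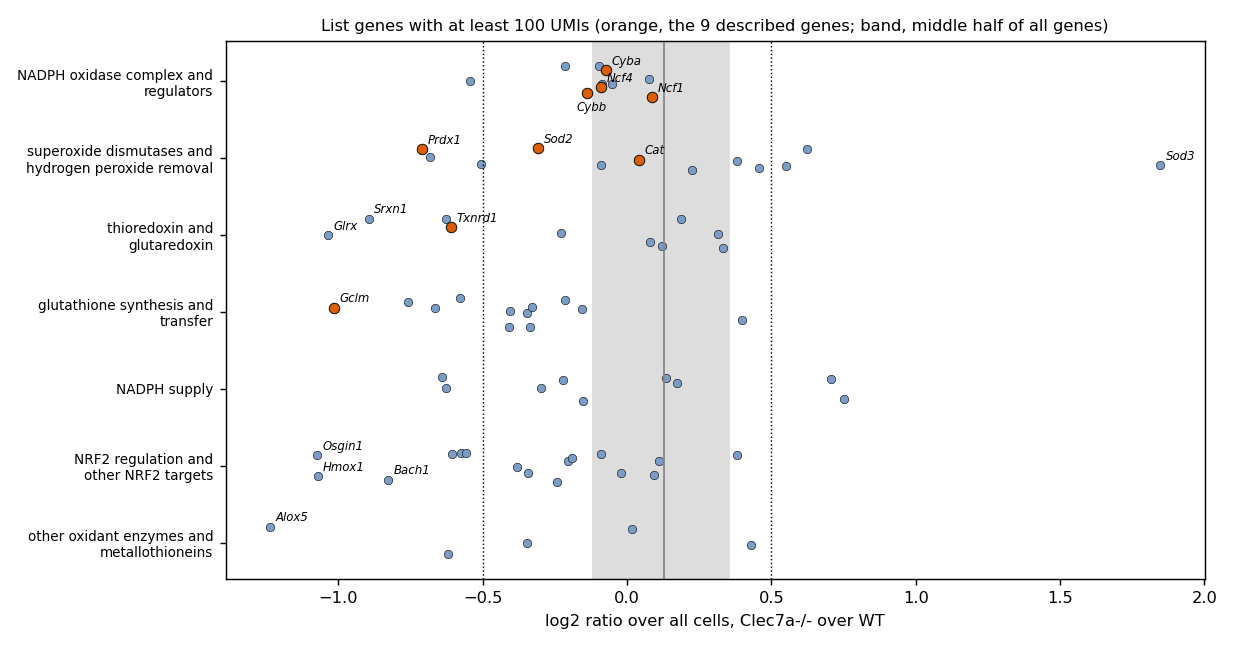
Log2 ratio over all cells, *Clec7a*-/- over WT library (horizontal axis), of the 74 list genes with at least 100 UMIs, 1 row per list, the 9 genes in orange, with dotted lines at −0.5 and 0.5 and a grey band and line for the interquartile range and median of all 8470 genes. More list genes lie left of −0.5, 22, than right of 0.5, 5.

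The genes whose pattern was most like each of the 9 were sought over 16 points, the sums of 8 classes in each library, by Pearson's r of log2(CPM + 10). The points share libraries and depth, and several small classes hold few UMIs, so r is a description. *Cybb* was most like *Ctsk* (r = 0.95), *Ms4a6d* (0.94) and *Tfec* (0.93). *Cyba* was most like *Map2k1*, *Atp6v1a* and *Smox* (0.92 to 0.90), *Ncf1* like *Ttc7b*, *Dennd4a* and *Iqgap1* (0.89 to 0.86), and *Ncf4* like *Lilrb4a*, *Lilr4b* and *Plek* (0.95 to 0.94). *Sod2* was most like *Gpr35*, *Crybg3* and *Phf23* (0.94 to 0.91), *Txnrd1* like *Ftl1-ps1*, *Gab2* and *Vps18* (0.91 to 0.86), *Gclm* like *Gsr*, *Diaph1* and *Irak3* (0.91 to 0.90), *Prdx1* like *Sulf2* and *Spint1* (0.92 and 0.90), and *Cat* like *Capzb*, *Sh3pxd2b* and *Cdip1* (0.89 to 0.88). Among the 9 genes themselves, *Cybb* and *Sod2* had an r of 0.79 and *Txnrd1* and *Gclm* of 0.70, whereas *Cybb* and *Ncf1* had an r of 0.13 and *Gclm* and *Prdx1* of 0.12.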

How the data were processed

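The authors deposited raw UMI counts, whole numbers for each gene in each barcode. The submitters' processing notes name Cell Ranger 2.1.1 and mm10. The paper's filter on cells was used, and no doublets were removed. Seurat 5.3.0 in R 4.3.3 log-normalized the counts to 10000 and clustered both libraries on 20 principal components of 1979 variable features, at the lowest resolution that gave 15 clusters, 0.8. Features held none of the 9 genes, no other list gene and none of the sex-linked genes *Xist*, *Tsix*, *Ddx3y*, *Uty*, *Kdm5d* and *Eif2s3y*. Names came from 11 marker lists, by markers raised at least 2-fold. How unclear clusters were treated was settled once the clusters had been seen. UMIs were summed per class and library. Levels have exact Poisson and ratios exact conditional intervals at 95%, and the limit for no UMIs is that of 3 counts. Counting steps were tested on simulated data. All intervals cover counting error only.

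The members and lists were chosen with earlier results of these data known. Besides the 9 genes, the rule named list genes past a log2 fold of 0.5 over all cells or in 3 of 4 classes (at most 20, by size), the 3 genes most like each, and markers. Alternatives varied the mitochondrial limit (10%), gene limits (500 to 6000), doublets (top 5% of Scrublet scores, scanpy 1.11.5), features, resolution, components (30), integration by reciprocal PCA, scaling (a mean over cells, TMM from edgeR 4.0.16, median of ratios, WT class weights), the minimum of UMIs (20 or none), the pseudocount (5) and thinning (2000 or none). Python 3.11.15, numpy 2.4.6, scipy 1.17.1, pandas 2.3.3 and matplotlib 3.10.9 were used. Of the files' identifiers, 32158 of 32285 were in GENCODE M21. A few genes that the rule or the lists would name are not reported here.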

Additional observations from a re-analysis of the deposited data

How the results depend on the processing

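No paired analysis was possible because each genotype had 1 library, and no replicate could be left out. The call of *Txnrd1*, *Gclm* and *Prdx1* as lower over all cells held in all 9 alternatives, with log2 ratios from −0.78 to −0.60, −1.19 to −0.70 and −0.88 to −0.60. Some of these alternatives could not undo it. TMM and median-of-ratios scaling moved every ratio over all cells by −0.17, and a pseudocount of 5 is small beside the UMIs of these genes. For 72 results such as ratios of single genes, alternatives gave 653 values, of which 142 moved and 8 were reversed. Whether a ratio was called moved does not follow the size of its change alone. Over all cells *Prdx1*, from −0.709 to −0.679 with 500 to 6000 genes, was called moved. *Alox5*, from −1.24 to −0.734 with a mean over cells, was not. Of 149 values that alternatives gave for 13 main results, 10 moved. In macrophage-like cells 1 of the 9 genes, *Ncf1*, was higher with 10% mitochondrial UMIs allowed, and 2, *Txnrd1* and *Prdx1*, were lower with high Scrublet scores removed and with median-of-ratios scaling. Of all genes in macrophage-like cells, 5.20% were lower and 2.79% higher with median-of-ratios scaling. In DC-like cells 1, *Prdx1*, was lower and 1, *Cybb*, higher with a mean over cells. For the mitochondrial, Scrublet and mean-over-cells settings no share of all genes is given, so these counts cannot be set against it. Of the 74 list genes, 3 were higher over all cells with TMM and with median-of-ratios scaling, where 7.66% and 7.47% of all genes were higher. With a mean over cells 14 list genes were lower, and 8 were higher with a minimum of 20 UMIs and 12 with none. A lower minimum also changes how many genes are counted. The share of all genes is not given for these last settings, so their counts cannot be set against it. With clusters weighted by the WT library, a setting added after the data were seen, *Alox5* was at 0.0387, *Mthfd2* at −0.0129, *Nos2* at 0.227, *Txnip* at 0.338 and *Slc7a11* at 0.0462 on the log2 scale over all cells. *Txnip* was at 0.0535 with a mean over cells and at 0.231 with classes weighted, where *Slc7a11* was at 0.0269. In the neutrophil-like class *Cybb* ranged from −1.35 to −0.65 and *Prdx1* from −0.86 to −0.23 over 11 alternatives. TMM scaling moved every ratio by −0.17 over all cells and −0.13 in neutrophil-like cells, and took the share of lower among called genes there from 50.5% to 70.2%. The cause of these moves was not tested. Depth limits *Cat* and the neutrophil-like *Clec7a*-/- cells, of median 1050.0 UMIs.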
